A study of Homo sapiens with 8 samples.

Results

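The 38 HOX genes described here lie in the A, B, C and D clusters, with 10, 10, 9 and 9 genes each. Peaks of SOX2, OCT4 and NANOG were taken as HOX peaks where a deposited list named a HOX gene as a flanking gene with its transcription start at most 50 kb away. By that rule 256 of 201619 peaks were HOX peaks, and the clusters held 50, 80, 46 and 80 of them in the order A to D. The lists named 19629 gene symbols in all. HOXA6 was named as a flanking gene in no list, so 37 of the 38 genes were credited with at least 1 peak. The lists name only the genes that flank a peak, so a gene is said here to have a peak where it flanks one. A gene without a peak in this sense can still have one within 50 kb that the lists credit to its neighbours.

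The study mapped the 3 factors by chromatin immunoprecipitation with sequencing (ChIP-seq) in NT2/D1, a human embryonal carcinoma line, and in H9, a human embryonic stem cell line. No treatment, genotype or time is given for either line, and peak lists hold no expression values against which the cell type could be checked. Each factor and line had 1 library with its own peak list, called against an IgG control library. There were no replicates, so differences between lists have no replicate check and no test was made. The libraries held 10218752 to 23160564 unique tags in NT2/D1 and 54046559 to 77649240 in H9, and the calling settings differed between the lines as well. Differences between the lines in peak numbers therefore cannot be told apart from depth and settings. The NT2/D1 lists were the longer for each factor, with 38423 SOX2, 46169 OCT4 and 34208 NANOG peaks, against 19349, 29575 and 33895 in H9. For NT2/D1, the source name of the OCT4 library says NANOG and that of the NANOG library says OCT4, against their titles and descriptions. The names in the file headers follow the titles, which were used here. Values with the names exchanged are given for some results only. Every other NT2/D1 value given for OCT4 or NANOG would also change its factor with the exchange.

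HOX genes encode homeodomain transcription factors that give cells their position along the head to tail axis. Genes at the 3′ end of a cluster (paralogue groups 1 to 4) are switched on first and act in the hindbrain and neck, and genes at the 5′ end (groups 9 to 13) are switched on later and act in the trunk, limbs and urogenital tract. In pluripotent cells most HOX genes are silent and covered by Polycomb marks. NT2/D1 cells are known to switch HOX genes on in their 3′ to 5′ order when treated with retinoic acid. OCT4 is a POU factor that often binds DNA beside SOX2, and NANOG is a homeodomain protein outside the HOX clusters.

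In H9, HOX genes were credited with a peak more often than genes at large, and in NT2/D1 they were not. In NT2/D1, 20 of the 38 HOX genes flanked a SOX2 peak within 50 kb (52.6%, exact 95% binomial interval 35.8 to 69.0), against 55.1% of all symbols. OCT4 peaks were credited to 27 HOX genes in NT2/D1 (71.1%, 54.1 to 84.6), against 75.7% of all symbols. NANOG peaks were credited to 11 in NT2/D1 (28.9%, 15.4 to 45.9), against 55.3%. In H9 the SOX2 count was 21 (55.3%, 38.3 to 71.4), against 33.6% of all symbols. The H9 OCT4 count was 36 (94.7%, 82.3 to 99.4), against 55.4%, and HOXA6 and HOXA7 were the genes credited with none. The H9 NANOG count was 34 (89.5%, 75.2 to 97.1), against 54.2%. The intervals cover counting error only, and neighbouring HOX genes share peaks. All symbols are those that a list names as flanking a peak, whereas the 38 HOX genes include HOXA6, which no list names.

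The order of HOX genes and all genes turned with some settings. Among the upper 50% of peaks by score, the H9 SOX2 share was 18.4% for HOX genes and 18.8% for all symbols. With a distance limit of 10 kb, the NT2/D1 shares were 42.1% and 26.6% for SOX2 and 52.6% and 48.1% for OCT4, HOX genes first. HOX starts lie close together, with a median of 12.04 kb between neighbours, so a limit of 50 kb is rarely reached inside a cluster. With the NT2/D1 names exchanged, the OCT4 count is 11 and the NANOG count 27.

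**Figure D1:**
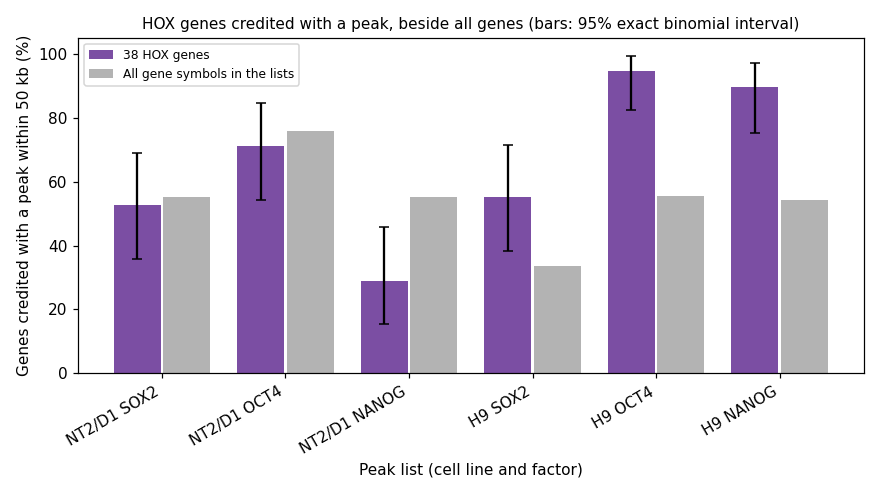
Share of genes (y axis, percent) credited with a peak within 50 kb in each of the 6 lists (x axis), as purple bars for the 38 HOX genes with 95% exact binomial intervals and grey bars for all symbols. The HOX bars stand above the grey bars in the 3 H9 lists, by most for OCT4 (94.7% against 55.4%), and below them in the 3 NT2/D1 lists.

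Close to the starts the lines differed further. Within 1 kb of a start, NT2/D1 SOX2, OCT4 and NANOG peaks lay at 3, 9 and 1 HOX genes (7.89%, 23.7% and 2.63%), against 6.52%, 26.5% and 7.53% of all symbols. In H9 they lay at 5, 21 and 16 HOX genes (13.2%, 55.3% and 42.1%), against 4.29%, 14.9% and 12.7%. With any factor counted, 12 HOX genes (31.6%) had such a peak in NT2/D1, against 33.7% of all symbols, and 28 (73.7%) in H9, against 23.6%. The 12 of NT2/D1 were HOXA3, HOXA4, HOXA9, HOXA11, HOXA13, HOXB1, HOXB9, HOXC4, HOXC11, HOXD3, HOXD10 and HOXD11. The 10 without one in H9 were HOXA2, HOXA5, HOXA6, HOXA7, HOXB2, HOXC6, HOXC8, HOXC9, HOXD4 and HOXD10.

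A peak overlapped the start itself 1 time in NT2/D1, at HOXB1, and 13 times in H9. In H9 these were 3 peaks at HOXB1, 2 each at HOXB3, HOXC11 and HOXD3, and 1 each at HOXB5, HOXB6, HOXB13 and HOXC13. None lay over a start of the A cluster. The same count was not made over all symbols, so whether HOX genes differ here from genes at large was not tested. Apart from HOXB1, the H9 peaks over a start were weak to middling, at percentiles of 3.62 (NANOG at HOXB5, 19 tags) to 58.0 (SOX2 at HOXD3, 36 tags). HOXD3, which acts in the neck vertebrae, also had the NT2/D1 SOX2 peak nearest to a start, 12 tags at 179 bp.

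The H9 clusters were filled mainly with OCT4 peaks of ordinary strength. NT2/D1 had 18 SOX2, 24 OCT4 and 13 NANOG HOX peaks, and H9 had 30, 112 and 59. HOX peaks made up 0.0468%, 0.0520% and 0.0380% of the NT2/D1 SOX2, OCT4 and NANOG lists, against 0.155%, 0.379% and 0.174% of the H9 lists. Strength is given here as the percentile of a peak's score within its own list, where 50 is the middle of the list. The median percentile of HOX peaks was 55.3, 55.1 and 54.0 for SOX2, OCT4 and NANOG in NT2/D1, and 40.4, 48.6 and 37.4 in H9. Only 2 of the 112 H9 OCT4 peaks (1.79%) were in the top 10% of that list.

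In H9, summits of all 3 factors were denser between the outermost HOX starts of each cluster than over the genome, and OCT4 had the highest ratio in each cluster. In NT2/D1 this held in the A, C and D clusters, and in the B cluster for OCT4 alone. The density is the number of summits per 100 kb, divided by the list's own mean over the genome size the authors gave to the peak caller. For OCT4 the ratio was 2.40 in the A cluster, 1.18 in the B cluster, 2.03 in the C cluster and 4.27 in the D cluster in NT2/D1, against 16.9, 16.2, 13.5 and 21.9 in H9. For SOX2 it was 2.17, 0.710, 1.83 and 2.20 in NT2/D1, against 4.301, 4.94, 2.43 and 16.0 in H9. For NANOG it was 1.62, 0, 1.37 and 3.30 in NT2/D1, against 5.73, 6.84, 7.61 and 9.15 in H9. The B cluster includes the long interval between HOXB9 and HOXB13. Over HOXB1 to HOXB9 alone, the SOX2, OCT4 and NANOG ratios were 1.47, 2.45 and 0 in NT2/D1, against 8.76, 28.7 and 10.003 in H9. The NT2/D1 ratios rest on 0 to 7 summits a cluster, and the H9 ratios on 2 to 35. Whether gene-rich stretches elsewhere have a like density was not tested.

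**Figure D2:**
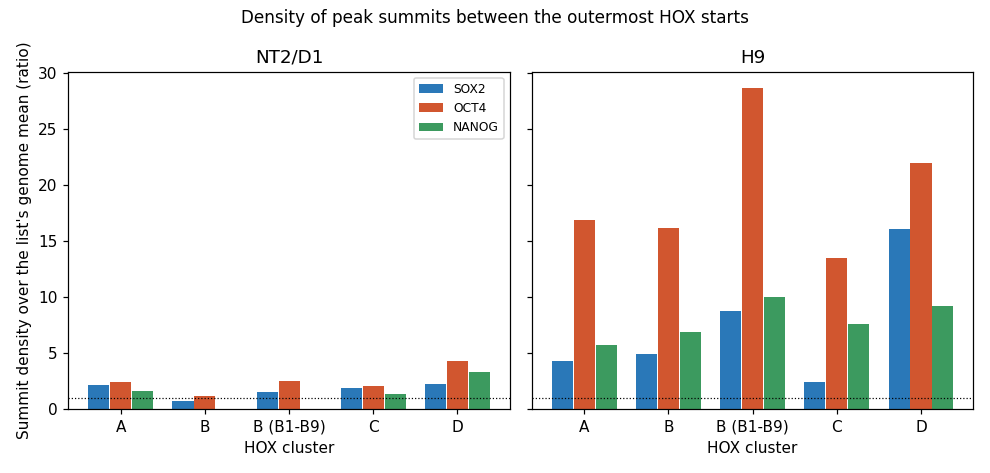
Density of peak summits between the outermost HOX starts of each cluster (x axis; for B also the span from HOXB1 to HOXB9), as a ratio to the mean density of the same list over the genome (y axis), for SOX2, OCT4 and NANOG. NT2/D1 stands left and H9 right; the dotted line marks a ratio of 1, and over full clusters the highest bar is H9 OCT4 in the D cluster at 21.9, against 28.7 over HOXB1 to HOXB9.

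The strongest HOX peaks lay at a few sites. In NT2/D1, 7 of 55 HOX peaks (12.7%) were in the top 10% of their list, against 7 of 201 (3.48%) in H9. Of these 14, 11 fell in 3 regions: 1 between HOXD12 and HOXD13, 1 downstream of HOXB1 and 1 over the start of HOXB1. The other 3 were an NT2/D1 SOX2 peak upstream of HOXA13, an NT2/D1 OCT4 peak between HOXA4 and HOXA5 and an H9 NANOG peak downstream of HOXD1.

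HOXB1, the group 1 gene that marks a single segment of the hindbrain, was the one HOX gene near a region of all 3 factors in both lines. Its strongest site was at chr17:46597501-46598670 (hg19), with summits 9903 to 10109 bp downstream of the start, on the side away from HOXB2 and facing SKAP1. In NT2/D1 the SOX2 peak there held 29 tags at a fold enrichment of 23.94, the OCT4 peak 10 tags at 8.62 and the NANOG peak 18 tags at 15.54. In H9 the SOX2 peak held 135 tags at 15.19, the OCT4 peak 61 tags at 3.86 and the NANOG peak 159 tags at 18.31. The fold is the authors' ratio over background and tags are the whole ChIP tags in the peak. SOX2 and NANOG stood high in both lines, at percentiles of 98.8 and 98.0 in NT2/D1 and of 97.4 and 96.7 in H9. OCT4 stood lower at the same site, at 65.0 in NT2/D1 and 73.1 in H9. With the NT2/D1 names exchanged, OCT4 would stand at 98.0 and NANOG at 65.0 there in NT2/D1. The 6 summits lay within 206 bp of each other. The deposited FDR of the SOX2, OCT4 and NANOG peaks there was 19.87%, 10.05% and 22.88% in NT2/D1, against 0.79%, 3.35% and 0.62% in H9. Among NT2/D1 SOX2 and NANOG HOX peaks the deposited FDR rose with the score, so it does not rank their reliability.

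OCT4 was instead strongest over the HOXB1 start itself, at chr17:46608199-46608980. The NT2/D1 OCT4 peak there held 38 tags at a fold of 24.32, the highest fold of any HOX peak, at the percentile of 97.9. No SOX2 or NANOG peak was called there in NT2/D1. The NT2/D1 OCT4 list was called against a control of 6479071 unique tags with a model fold of 5. For NT2/D1 SOX2 and NANOG the control held 2937004 unique tags and the model fold was 3. Differences between OCT4 and the other factors within NT2/D1 thus cannot be told apart from control and settings. In H9 the SOX2 peak held 58 tags at 8.41, the OCT4 peak 69 tags at 6.89 and the NANOG peak 45 tags at 6.82, with percentiles of 78.8, 93.4 and 63.2. The 4 summits lay 242 to 267 bp upstream of the start named in the files. Under the exchanged source names the NT2/D1 peak over the start would be NANOG.

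The sequence upstream of HOXB1 is shown because the OCT4 peaks of both lines lie over the HOXB1 start in the hg19 lists. RefSeq promoter windows (GRCh38.p14, 250 bases before to 50 after a start) were at hand for 20 of the 38 genes, and their starts can differ from those in the hg19 lists. In the mouse, the autoregulatory enhancer upstream of Hoxb1 is known to hold a SOX site and a POU site next to each other beside sites for PBX and HOX proteins. The search covered 5 short motifs on both strands: CTTTGT and CATTGT for SOX factors, ATGCAAAT and ATGCTAAT for POU factors, and TGATNNAT for PBX with HOX. The 250 bases before the start of HOXB1 are printed first, from chr17:48531012-48531261 on the minus strand, and those before HOXD1, the other gene of paralogue group 1 in the tables used here, from chr2:176188418-176188667 on the plus strand. Capitals mark a match to any of these motifs.
HOXB1: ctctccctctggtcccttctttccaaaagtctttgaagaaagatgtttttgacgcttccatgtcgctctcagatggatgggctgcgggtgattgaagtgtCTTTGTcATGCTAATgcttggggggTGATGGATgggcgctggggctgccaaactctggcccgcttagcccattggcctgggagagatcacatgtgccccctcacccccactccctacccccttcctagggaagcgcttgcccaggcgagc
HOXD1: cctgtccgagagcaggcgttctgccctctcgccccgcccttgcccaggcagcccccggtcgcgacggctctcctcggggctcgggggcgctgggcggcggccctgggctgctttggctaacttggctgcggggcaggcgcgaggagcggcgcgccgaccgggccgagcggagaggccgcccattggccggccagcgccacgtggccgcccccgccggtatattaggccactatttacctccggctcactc
In the HOXB1 window a CTTTGT and an ATGCTAAT stood 1 base apart, at 150 to 136 bases before the RefSeq start, and a TGATNNAT match followed at 125 to 118 bases before it. The HOXD1 window held no match. ATGCTAAT was in 0.649% of all 35116 windows, and HOXB1 was the one HOX gene with it. CTTTGT followed after 1 base by ATGCTAAT or ATGCAAAT was in 2 of the 35116 windows, 1 of them that of HOXB1. CTTTGT alone was in 16.1% of all windows, TGATNNAT in 7.40% and CATTGT in 10.8%, and CATTGT was in no HOX window. These matches describe letters and not binding.

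The octamer ATGCAAAT was in 1.77% of all windows and in those of 2 HOX genes, HOXA3 and HOXA10. HOXA3 acts in the pharyngeal region that gives rise to the thymus and thyroid, and HOXA10 in the uterus and in blood cells. They are shown with the octamer, read here on the opposite strand, in capitals, from chr7:27151032-27151091 for HOXA3 and chr7:27180052-27180111 for HOXA10, both on the minus strand.
HOXA3: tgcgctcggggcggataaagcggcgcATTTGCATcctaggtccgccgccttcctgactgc
HOXA10: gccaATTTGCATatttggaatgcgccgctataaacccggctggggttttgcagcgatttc
HOXA10 was credited with no NT2/D1 peak, and in H9 its nearest OCT4 peak lay 40 bp and its nearest NANOG peak 11 bp from the start named in the files. Both genes have more than 1 RefSeq start. The start behind each octamer window was not matched to a start in the hg19 lists, so no peak is placed at these octamers.

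The second strong site lay at the other end of a cluster, between HOXD13 and HOXD12, which pattern digits and the genital region. It covered chr2:176961230-176962330 (hg19), with summits 2469 to 2582 bp upstream of HOXD12. In NT2/D1 the SOX2 peak held 23 tags at a fold of 6.97 and the OCT4 peak 26 tags at 6.11, both at a percentile of 90.9, and no NANOG peak was called. In H9 the SOX2 peak held 123 tags at 13.51, the OCT4 peak 127 tags at 10.26 and the NANOG peak 110 tags at 11.52, with percentiles of 94.4, 99.1 and 92.9. The H9 OCT4 peak was the highest-scoring HOX peak of its list. Unlike the site downstream of HOXB1, OCT4 there stood no lower than SOX2 in percentile in either line. With the NT2/D1 names exchanged, the site would hold a NANOG peak and no OCT4 peak in NT2/D1.

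HOXD1, the group 1 gene of the D cluster, had a site at chr2:177056855-177057687 with summits 3930 to 3993 bp downstream of its start. The NT2/D1 NANOG peak there held 9 tags at a fold of 7.77. The H9 SOX2 peak held 55 tags at 8.16, the OCT4 peak 40 tags at 5.71 and the NANOG peak 82 tags at 16.59. NANOG had the highest percentile of the 3 in H9, 92.5, against 79.2 for SOX2 and 78.5 for OCT4. Neither SOX2 nor OCT4 had a peak at this site in NT2/D1.

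**Figure D3:**
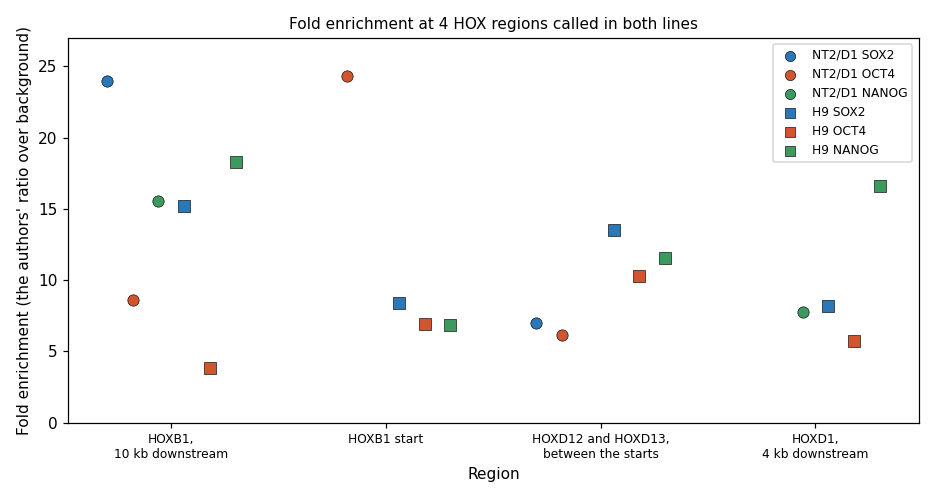
Fold enrichment (y axis, the authors' ratio over background) at 4 HOX regions called in both lines (x axis), with circles for NT2/D1, squares for H9 and colours for the factors; a missing point is a list with no peak there. SOX2 and NANOG lie above OCT4 downstream of HOXB1 in both lines, and NT2/D1 OCT4 is highest over the HOXB1 start at 24.32. Controls and calling settings differ between the lines and, within NT2/D1, between OCT4 and the other factors.

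A region of all 3 factors lay at HOXB1 alone in NT2/D1, a share near that of all regions, and in the B, C and D clusters in H9. Peaks of the 3 lists of a line were merged into regions where they overlapped by at least 1 bp. In NT2/D1, 1 of 48 HOX regions held all 3 factors (2.08%, 0.0527 to 11.1), against 1.79% of all regions, 5 held a pair and 42 held 1 factor. It was the site downstream of HOXB1, and 1 of 38 HOX genes was credited with such a region, against 5.62% of all symbols. In H9, 12 of 146 HOX regions held all 3 factors (8.22%, 4.32 to 13.9), against 14.7% of all regions, 25 held a pair and 109 held 1 factor. OCT4 alone accounted for 74 of the 109, NANOG alone for 25 and SOX2 alone for 10. Counted by gene the order was the other way round: 12 of the 38 HOX genes were credited with one in H9, against 17.1% of all symbols. All of the H9 calls used a single IgG library as control.

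The B cluster held 6 of the 12 H9 regions, the D cluster 5, the C cluster 1 and the A cluster 0. Besides both HOXB1 sites, 2 lay in the interval between HOXB2 and HOXB3, genes of the hindbrain, at 4941 and 3661 bp from the HOXB3 start. Their NANOG peaks held 109 and 57 tags at folds of 5.72 and 8.5. Another lay 1681 bp from HOXB4, a gene used to expand blood stem cells, in the interval to HOXB5, and its NANOG peak was at a percentile of 5.42. The last lay 9834 bp from HOXB13, which acts in the prostate and stands apart at the 5′ end of the cluster. In the D cluster, 1 region lay 3616 bp from HOXD13 on its 5′ side and another 565 bp from HOXD13 toward HOXD12. A region 3838 bp from HOXD4 lay between HOXD4 and HOXD3, with 27 SOX2, 29 OCT4 and 39 NANOG tags. In the C cluster the region lay 6532 bp from HOXC11, and its SOX2 and OCT4 peaks had low percentiles of 32.6 and 32.4. At the region on the 5′ side of HOXD13, NT2/D1 OCT4 also had a peak of 10 tags at a fold of 9.86, which its list credits to EVX2, the neighbouring homeobox gene.

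In the A cluster, the genes with all 3 factors in H9 were the 5′ genes HOXA9, HOXA10, HOXA11 and HOXA13. In NT2/D1 the cluster held 4 SOX2, 5 OCT4 and 3 NANOG peaks near 8 of its 10 genes, and in H9 4, 24 and 10 peaks near 9. Beside these counts and those of the other clusters, 89.3% of all symbols had a peak of any factor in NT2/D1 and 74.0% in H9. The strongest NT2/D1 peak was SOX2 with 28 tags at a fold of 8.09, 8121 bp upstream of HOXA13, a gene of the limb and the hindgut, at a percentile of 94.1. A NANOG peak of 9 tags lay within it. The strongest NT2/D1 OCT4 peak, 11 tags at 10.85, lay between HOXA4 and HOXA5, and the strongest NANOG peak, 10 tags at 6.48, lay 821 bp from HOXA3. In H9 the strongest OCT4 peak held 55 tags at 5.01, 1937 bp from HOXA3. The strongest H9 SOX2 peak, 32 tags at 4.09, and NANOG peak, 72 tags at 4.77, were both nearest to HOXA13 among the genes of the cluster, and the NANOG peak lay 43186 bp from it, beside EVX1. The 4 H9 SOX2 peaks were all near HOXA9, HOXA10, HOXA11 and HOXA13, and no H9 SOX2 peak was credited to HOXA2, HOXA3, HOXA4, HOXA5 or HOXA7. A stretch of 23.7 kb that holds the starts of HOXA5 and HOXA7 had no peak in any of the 6 lists.

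The strong NT2/D1 peaks of the B cluster were those of its 3′ gene, HOXB1. In NT2/D1 the cluster held 3 SOX2, 5 OCT4 and 1 NANOG peaks near 8 of 10 genes, against 10, 40 and 21 near 10 of 10 in H9. Of the 9 NT2/D1 peaks, HOXB1 had 4, at percentiles of 98.8, 97.9, 65.0 and 98.0. The other 5 held 5 to 11 tags, at percentiles of 16.98 to 54.8. No NT2/D1 peak was credited to HOXB4 or HOXB13, and the 1 NANOG peak of the cluster was the one downstream of HOXB1. In H9, OCT4 peaks ran through the cluster, with 13 credited to HOXB3 and 11 to HOXB2, most of them the same peaks credited to both genes. The interval from HOXB9 to HOXB13 was empty over 70.6 kb in all 6 lists.

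The C cluster had no peak in the top 10% of any list. It held 6 SOX2, 5 OCT4 and 2 NANOG peaks in NT2/D1 near 7 of 9 genes, and 2, 18 and 13 in H9 near 9 of 9. HOXC6 and HOXC8, which act in the brachial region, were credited with no NT2/D1 peak and start in a stretch of 39.2 kb without one. HOXC13, a gene of hair and nails, had the strongest NT2/D1 SOX2 and OCT4 peaks of the cluster, 20 tags at 5.66 and 11 tags at 6.87, at percentiles of 77.5 and 75.0. The strongest NT2/D1 NANOG peak, 8 tags at 7.04, lay between HOXC12 and HOXC13. In H9 the strongest SOX2 peak also lay between HOXC12 and HOXC13, with 44 tags at 3.68. The strongest H9 OCT4 and NANOG peaks, 72 tags at 4.31 and 62 tags at 3.5, lay at HOXC4, the 3′ end of the cluster. No H9 SOX2 peak was credited to HOXC4, HOXC5, HOXC6, HOXC8, HOXC9 or HOXC10.

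The D cluster had a peak near each of its 9 genes in both lines, against 89.3% of all symbols in NT2/D1 and 74.0% in H9. Crediting the nearer gene alone left 7 of the 9 in NT2/D1 and 9 in H9. It held 5 SOX2, 9 OCT4 and 7 NANOG peaks in NT2/D1, and 14, 30 and 15 in H9. NT2/D1 NANOG peaks lay at the 3′ side, near HOXD1, HOXD3, HOXD4, HOXD8 and HOXD9, and none was credited to HOXD10, HOXD11, HOXD12 or HOXD13. The strongest of them held 9 tags at 9.39, 1467 bp from HOXD1. In H9 the median percentile of HOXD peaks was 51.3, against 35.4 in the A, 48.8 in the B and 36.9 in the C cluster. HOXD10 and HOXD11, genes of the lumbar cord and the forearm, had 2 or fewer peaks of any H9 factor each.

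**Figure D4:**
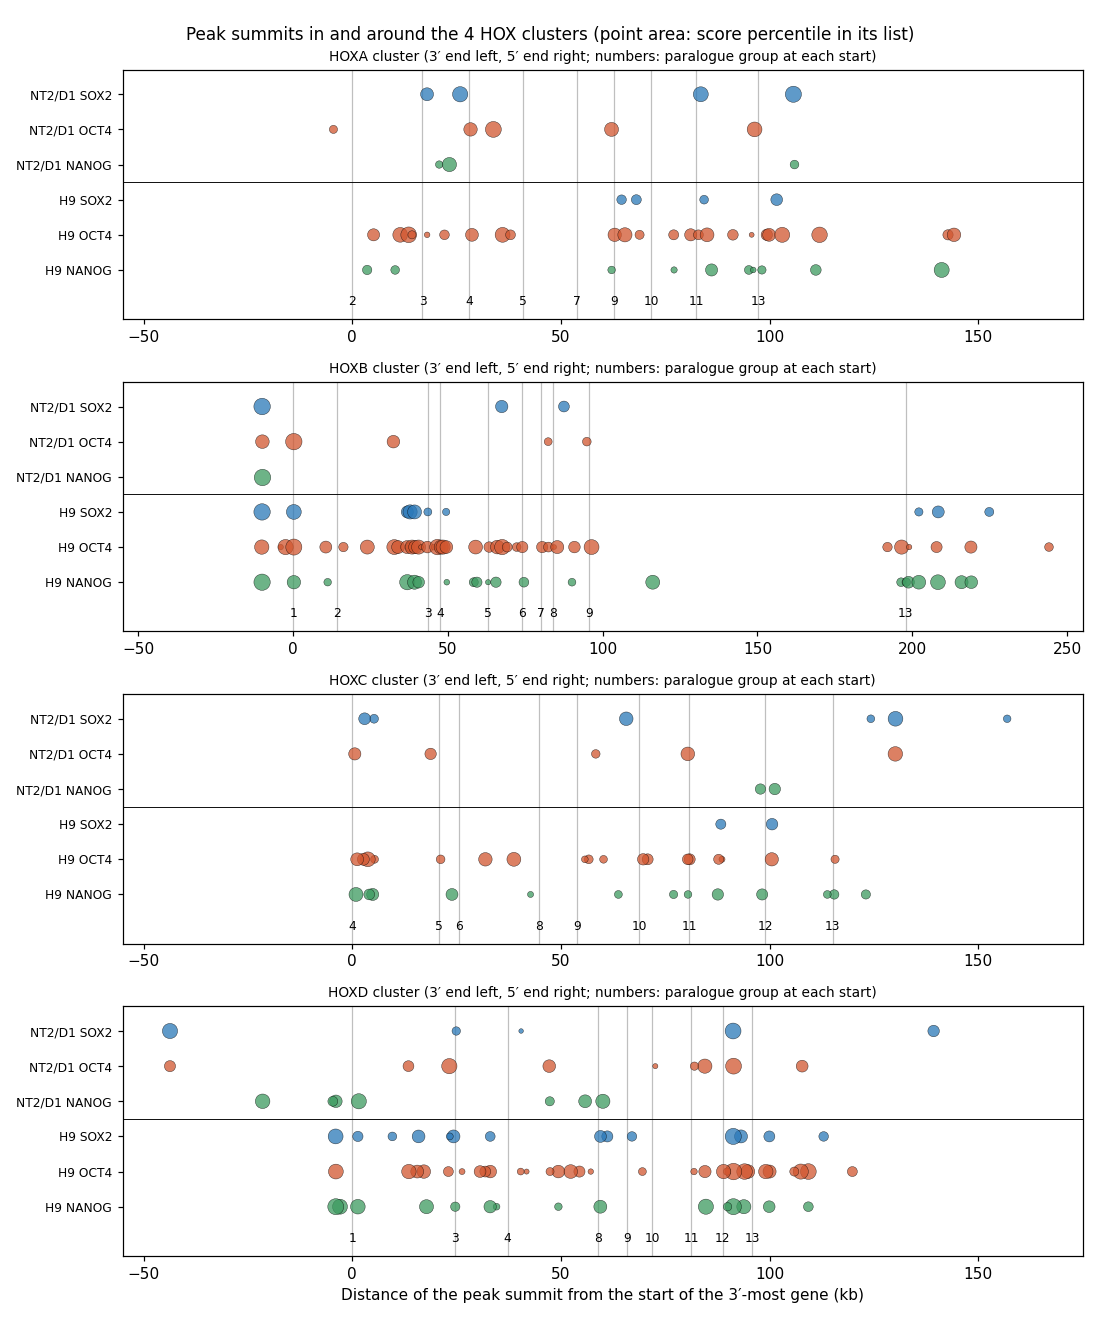
Peak summits of the 6 lists in and around the 4 clusters, with distance from the start of the 3′-most gene on the x axis (kb, the 3′ end at the left) and a row for each list, NT2/D1 above H9; point area grows with the score percentile and grey lines with numbers mark the starts. In H9 the largest points stand at HOXB1 and between HOXD12 and HOXD13. In NT2/D1 they stand at HOXB1, then upstream of HOXA13, between HOXA4 and HOXA5 and between HOXD12 and HOXD13. The H9 OCT4 rows are the fullest, and the interval between HOXB9 and HOXB13 is empty over 70.6 kb. HOXA6 has no start in the lists and is not drawn.

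Set by paralogue group and counted for the nearest HOX gene, the ends of the clusters had more peaks than the middle. A HOX gene of groups 1 to 4 had a peak of any factor in 10 of 11 cases in NT2/D1 and 11 of 11 in H9. Over all groups it was 32 of 38 (84.2%) in NT2/D1, against 89.3% of all symbols, and 37 of 38 (97.4%) in H9, against 74.0%. Genes of groups 9 to 13 had one in 14 of 16 cases in NT2/D1 and 16 of 16 in H9, and those of groups 5 to 8 in 8 of 11 and 10 of 11. Counting each peak for its nearest HOX gene, groups 1 to 4 had 27 peaks, groups 5 to 8 had 6 and groups 9 to 13 had 22 in NT2/D1. In H9 these were 78, 30 and 93. NT2/D1 NANOG had 8 peaks at the 3′ group, 2 in the middle and 3 at the 5′ group, and NT2/D1 OCT4 had 11, 2 and 11. H9 SOX2 peaks numbered 14, 2 and 14 in the same order. The groups hold 11, 11 and 16 genes. With peaks credited to either flanking gene, the counts in that order were 29, 16 and 24 in NT2/D1 and 89, 50 and 98 in H9. NT2/D1 OCT4 then had 12, 8 and 11. Per gene, the middle then stood close to groups 9 to 13 in NT2/D1, so the contrast there depends on the counting. Groups 1 to 4 and 9 to 13 include the cluster ends, where a peak up to 50 kb outside the cluster is counted, and the part of those peaks in the counts was not tested.

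Over all clusters, the median percentile of H9 peaks was 54.8 at groups 1 to 4, 41.1 at groups 5 to 8 and 40.1 at groups 9 to 13. The order of the ends differed by cluster: groups 1 to 4 against 9 to 13 had 30.6 against 37.0 in the A cluster and 46.9 against 54.9 in the D cluster, but 62.5 against 46.1 in the B and 49.6 against 27.4 in the C cluster. In NT2/D1 the medians were 55.5, 49.2 and 56.1, closer together. Of the 38 genes, 7 had a peak in each of the 6 lists: HOXA13, HOXB1, HOXC13, HOXD1, HOXD3, HOXD4 and HOXD8. In NT2/D1 the same 7 had all 3 factors. There 12 genes had a pair of factors: HOXA3, HOXA4, HOXA11, HOXB8, HOXB9, HOXC4, HOXC5, HOXC9, HOXC10, HOXC11, HOXD12 and HOXD13. A single factor was found at 13: HOXA2, HOXA5, HOXA7, HOXA9, HOXB2, HOXB3, HOXB5, HOXB6, HOXB7, HOXC12, HOXD9, HOXD10 and HOXD11. The 6 without a peak were HOXA6, HOXA10, HOXB4, HOXB13, HOXC6 and HOXC8. In H9, 20 genes had all 3 factors, 14 had a pair, 3 had a single one and HOXA6 had none. The 3 were HOXA4 and HOXA5 with OCT4 and HOXA7 with NANOG, and the starts of HOXA5 and HOXA7 lie in the stretch of the A cluster without peaks. The same counts by number of lists or factors were not made over all symbols, so whether HOX genes differ here from genes at large was not tested.

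**Figure D5:**
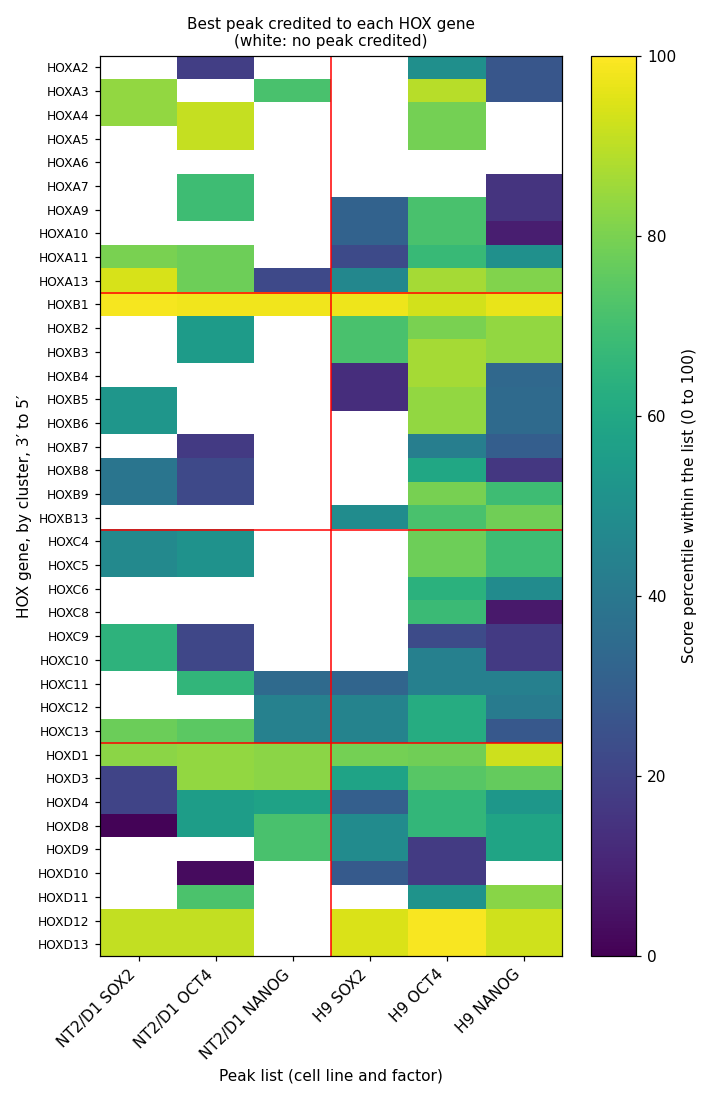
Score percentile (colour, 0 to 100) of the highest-scoring peak credited to each of the 38 HOX genes (rows, by cluster from 3′ to 5′) in each list (columns, NT2/D1 left and H9 right), with white for no peak credited. HOXB1 is bright in all 6 columns, HOXD12 and HOXD13 in 5, and the NT2/D1 NANOG column is the emptiest with 11 genes filled.

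OCT4 peaks at HOX genes in NT2/D1 recurred in H9 more often than OCT4 peaks at large. Of the 24 NT2/D1 OCT4 HOX peaks, 13 overlapped an H9 OCT4 peak (54.2%, 32.8 to 74.4), against 17.1% of all NT2/D1 OCT4 peaks. For NANOG it was 5 of 13 (38.5%, 13.9 to 68.4), against 10.1%, and for SOX2 2 of 18 (11.1%, 1.38 to 34.7), against 8.36%. The H9 OCT4 list is dense in these clusters, and the part of that density in this share was not tested. In the other direction, 14 of 112 H9 OCT4 HOX peaks overlapped an NT2/D1 OCT4 peak (12.5%, 7.01 to 20.1), against 26.1% of all H9 OCT4 peaks. The H9 SOX2 count was 2 of 30 (6.67%, 0.818 to 22.1), against 16.2%, and the NANOG count 5 of 59 (8.47%, 2.81 to 18.7), against 9.83%. With the NT2/D1 names exchanged, 3 of 13 OCT4 peaks (23.1%) and 8 of 24 NANOG peaks (33.3%) of NT2/D1 overlapped an H9 peak of the factor, and 3 of 112 (2.68%) and 9 of 59 (15.3%) of H9 an NT2/D1 peak.

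Both shared SOX2 peaks were the sites already described, downstream of HOXB1 and between HOXD12 and HOXD13. The shared OCT4 peaks included 1 of 13 tags at 170 bp from HOXC11 in NT2/D1, against 27 tags at 136 bp in H9. Another held 8 tags at 267 bp from HOXA4 in NT2/D1, against 26 tags at 443 bp in H9. The shared NANOG peaks lay at HOXB1, HOXC12, HOXD8 and, 2 of them, HOXD1.

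Among the genes described here that work with the HOX proteins or upstream of them, CDX2, a homeobox gene that activates HOX genes in the trunk, had the highest score percentile in each of the 6 lists. In NT2/D1 its best SOX2, OCT4 and NANOG peaks held 63, 69 and 46 tags at folds of 28.6, 13.95 and 17.78, and in H9 244, 162 and 299 tags at 16.71, 14.18 and 23.64. The lowest of the 6 percentiles was 98.8. Of CDX1, CDX2 and CDX4, SOX2, OCT4 and NANOG lay near 3, 3 and 2 in NT2/D1 and near 3, 3 and 2 in H9. Of the 9 PBX, MEIS and PKNOX genes, whose proteins bind DNA with HOX proteins, 4, 9 and 7 had a SOX2, OCT4 and NANOG peak in NT2/D1, and 7, 8 and 7 in H9. The shares of all symbols were 55.1%, 75.7% and 55.3% in NT2/D1 and 33.6%, 55.4% and 54.2% in H9, and with 9 genes nothing is read from the counts. PKNOX1 had the highest OCT4 percentile of these in NT2/D1, 98.4, and the highest NANOG percentile in H9, 97.0. EVX1 and EVX2, the homeobox genes at the 5′ ends of the A and D clusters, had a peak in 1, 2 and 2 of 2 cases in both lines, in the same order of factors.

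The distance rule left some peaks just outside. The farthest HOX peak inside the limit was an H9 OCT4 peak 46580 bp from HOXA13 with 36 tags at a fold of 4.68. The nearest outside were an NT2/D1 SOX2 peak 51774 bp from HOXB1 with 9 tags at 7.29 and an H9 NANOG peak 51994 bp from HOXA13 with 82 tags at 3.25.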

How the data were processed

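SOX2, OCT4 and NANOG ChIP-seq libraries of NT2/D1 and H9 were used through their 6 peak lists, 1 per library; the 2 IgG libraries were not analysed on their own. Peaks were called with MACS against IgG at a p-value cutoff of 0.001 from 50-base tags, with a band width of 200 in NT2/D1 and 2000 in H9 and a model fold of 3, or 5 for NT2/D1 OCT4, per the file headers. The 3 H9 lists share an IgG library, as do NT2/D1 SOX2 and NANOG, per the file headers. Coordinates are hg19, per the submitters' processing notes. No aligner is given in the sources used here.

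Each peak carries a deposited count of its ChIP tags, raw and whole. Its deposited fold enrichment is a ratio that the authors took over background. The deposited FDR, in percent per the file headers, was not used to choose peaks. In NT2/D1 it was at most 5% for 14 of 18 SOX2, 5 of 24 OCT4 and 11 of 13 NANOG HOX peaks. In H9 it was at most 5% for 9 of 30, 39 of 112 and 44 of 59, in the same order. Among NT2/D1 SOX2 and NANOG HOX peaks the FDR rose with the score, so those at most 5% were the lower-scoring ones. From the lowest-scoring to the highest-scoring HOX peak it went from 1.2% to 19.87% for SOX2 and from 1.6% to 22.88% for NANOG. For NT2/D1 OCT4 it went from 21.82% to 1.51%. The deposited score rises as the peak's p-value falls; its column name is damaged, so the scale was inferred from its lowest value, and it was ranked within each list. Distances from a peak to its flanking starts are the authors', and strand and start sites were recovered from them.

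The 38 genes, the groups of genes and the motifs were chosen with earlier results of these data known. A peak was credited to either flanking gene within 50 kb, and 27 date-like symbols were left out of the background. Peaks were merged or called shared at an overlap of at least 1 bp. Python 3.11.15 with pandas 2.3.3, numpy 2.4.6 and scipy 1.17.1 was used, and the counting was tested on simulated data. Binomial intervals are exact (Clopper-Pearson, 95%). Named in full were genes near a region of all 3 factors and, per cluster, line and factor, the gene with the highest-scoring peak. With 1 library per factor and line no test was made. Alternatives were the nearer gene only, limits of 10 and 100 kb, the upper 50% by score, lists cut to 19349 peaks, no widest 1%, exchanged NT2/D1 names, stricter overlaps and another split of paralogue groups.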

Additional observations from a re-analysis of the deposited data

How the results depend on the processing

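Values were recomputed under each alternative setting. A count stayed within 1.5 times, or a share inside its interval, in 207 cases, and did not in 42. Counts of HOX genes with a peak moved as follows. Crediting the nearer gene alone gave 11, 17 and 7 genes for NT2/D1 SOX2, OCT4 and NANOG, and for NT2/D1 4 genes in the A cluster, 5 in the B cluster and 4 in the middle groups. The upper 50% by score gave 13 for NT2/D1 SOX2, 7 for NT2/D1 NANOG, 7 for H9 SOX2, 17 for H9 NANOG and 5 for the NT2/D1 B cluster. Lists cut to the shortest length gave, in NT2/D1, 13 for SOX2 and 14 for OCT4, in H9 19 for NANOG, and among all NT2/D1 peaks 3 in the B cluster, 6 in groups 1 to 4 and 5 in groups 5 to 8. Taking groups 1 to 8 as the 3′ class gave 18 of 22 genes in NT2/D1 and 21 of 22 in H9. Exchanged names gave 11 and 27 genes in NT2/D1 for OCT4 and NANOG. H9 regions of all 3 factors numbered 7 in the upper 50% and 7 at a reciprocal overlap of 50%, and the genes near them 6 in the upper 50%. The share of H9 HOX peaks shared with NT2/D1 became 22.2% for SOX2 and 19.0% for NANOG in the upper 50%, 2.68% for OCT4 with exchanged names, and 4.46% for OCT4 and 0% for NANOG at a reciprocal overlap of 50%. Fewer peaks enter in the shortened lists and more genes in the wider class by construction. Crediting the nearer gene alone can only lower gene counts, and a stricter overlap can only lower the number of shared peaks. Exchanged names swap the OCT4 and NANOG gene counts of NT2/D1, also by construction. For the other changes the cause was not tested. Limits of 10 and 100 kb and leaving out the widest 1% moved none of these values by that much. No paired analysis was possible because each factor and line had 1 library. Depth is lower in NT2/D1, although its peak lists are longer, so a missing peak there does not show absence.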

Other observations

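Scaled to each library's unique tags, the NT2/D1 OCT4 peak over the HOXB1 start held 3.72 tags per 1000000, against 0.889 for H9 OCT4. At the site downstream of HOXB1 the order was the other way round for SOX2 and NANOG, with 1.25 and 0.915 tags per 1000000 in NT2/D1, against 1.87 and 2.94 in H9, and OCT4 held 0.979 in NT2/D1 and 0.786 in H9. Between HOXD12 and HOXD13, OCT4 held 2.54 tags per 1000000 in NT2/D1 and 1.64 in H9, and SOX2 0.993 in NT2/D1 and 1.70 in H9. These values describe 1 library each and were not tested. HOX peaks lay close to the starts, with 63.6% of NT2/D1 and 74.1% of H9 HOX peaks within 5 kb of a start, against 14.1% and 15.3% of all peaks of those lines. HOX peaks lie within 50 kb of a start by the rule used, whereas all peaks had no such limit. A higher share near starts is thus in part built in, and nothing is read from it. Neighbouring HOX starts lay a median of 12.04 kb apart, and the part of that spacing in these shares was not tested.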
